A study of Mus musculus with 30 samples.

Results

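Antibodies of the colon are mostly immunoglobulin A (IgA). Of the 46078 genes in the count table, 10 genes of antibody constant regions, antibody secretion and IgA transport are described here. They are the heavy chain constant genes Igha, Ighm and Ighd, the light chain constant genes Igkc, Iglc1 and Iglc2, the joining chain gene Jchain, the secretory pathway genes Mzb1 and Derl3 of antibody-secreting cells, and the transporter gene Pigr. They were chosen by name, and all 10 were found in the count and TPM tables of the 30 libraries.

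RNA-seq was performed on colon of C57BL/6J mice, with 6 libraries in each of 5 groups. Mice were 5 to 6 weeks old at the start and received a control diet (CD, 10% of energy from fat) or a high-fat diet (HFD, 60%) for 13 weeks. CD females, CD males, HFD females and HFD males received vehicle during the last 3 weeks, and HFD+E2 males received 17β-estradiol (E2) at 0.5 mg/kg body weight in 9 intraperitoneal injections. The females kept their ovaries, and RNA came from bulk colon tissue with all the cells it held. Libraries are numbered as replicates in the labels, and p-values measure the spread between them.

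Plasma cells of the lamina propria join heavy and light chains into an antibody, with the heavy chain constant region setting the isotype. B cells that have not switched isotype carry IgM and IgD, encoded by Ighm and Ighd from a shared primary transcript, while IgA-secreting plasma cells use Igha. The J chain links IgA monomers into the polymer that the polymeric immunoglobulin receptor, the product of Pigr, carries through epithelial cells into the gut lumen. Each light chain is either kappa, encoded by Igkc, or lambda, encoded by Iglc1, Iglc2 or Iglc3.

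On the GRCm38 build, Ighm, Ighd and Igha lie in this order of transcription on the minus strand of chromosome 12, at chr12:113418558-113422730, chr12:113406604-113416324 and chr12:113254830-113260236. Igkc is at chr6:70726435-70726966 and overlaps Gm30211 on the same strand. Iglc1 is at chr16:19061618-19062071, opposite 2010309G21Rik, and Iglc2 is at chr16:19198396-19200351, where it shares its strand with Iglj2. Jchain (ENSMUSG00000067149) is at chr5:88519809-88527891, Pigr (ENSMUSG00000026417) at chr1:130826684-130852249 and Derl3 (ENSMUSG00000009092) at chr10:75893398-75895941. Whether the authors counted reads by strand is not given in the sources used here, so reads of overlapping genes cannot be told apart.

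Of the lambda constant genes, Iglc2 and Iglc3 are near copies of each other, which bears on whether 51-base reads can separate them. A matched stretch of 180 coding bases of the lambda genes is shown on the coding strand (chr16:19061890-19062069 for Iglc1, chr16:19198671-19198850 for Iglc2 and chr16:19065500-19065679 for Iglc3, all on the minus strand), with capitals at positions where the 3 genes are not all the same:
Iglc1: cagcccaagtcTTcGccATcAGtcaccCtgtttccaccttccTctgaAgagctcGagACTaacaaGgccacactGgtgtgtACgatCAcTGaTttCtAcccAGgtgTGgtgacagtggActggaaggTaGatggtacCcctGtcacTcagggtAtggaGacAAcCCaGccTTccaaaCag
Iglc2: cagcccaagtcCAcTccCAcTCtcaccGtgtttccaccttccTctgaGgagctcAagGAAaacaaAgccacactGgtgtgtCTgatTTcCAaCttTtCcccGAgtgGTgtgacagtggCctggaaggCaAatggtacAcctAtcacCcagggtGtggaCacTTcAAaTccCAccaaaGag
Iglc3: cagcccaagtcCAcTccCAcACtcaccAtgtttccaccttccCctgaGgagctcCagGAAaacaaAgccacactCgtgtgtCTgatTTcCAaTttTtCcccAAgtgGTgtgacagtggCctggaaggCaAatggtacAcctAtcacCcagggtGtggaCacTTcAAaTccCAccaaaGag
Iglc1 was 76.1% identical to Iglc2 and 76.7% to Iglc3 over this stretch, and its transcript had 0 windows of 51 bases in common with either. Iglc2 and Iglc3 were 96.1% identical, and 41 of the 408 windows of Iglc2 were also in Iglc3. Some reads of Iglc2 and Iglc3 could therefore have been assigned to either or dropped. The windows were compared singly, while the study's reads were paired-end. A mate outside the shared windows could thus still separate a pair. Reads of Iglc1 could still be shared with 2010309G21Rik.

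RefSeq promoters were matched for Jchain, Pigr and Derl3. The 250 bases before the transcription start are shown for the receptor and for the secretory pathway gene (GRCm38.p6, chr1:130826434-130826683 and chr10:75893148-75893397, both on the plus strand), with capitals marking matched motifs:
Pigr: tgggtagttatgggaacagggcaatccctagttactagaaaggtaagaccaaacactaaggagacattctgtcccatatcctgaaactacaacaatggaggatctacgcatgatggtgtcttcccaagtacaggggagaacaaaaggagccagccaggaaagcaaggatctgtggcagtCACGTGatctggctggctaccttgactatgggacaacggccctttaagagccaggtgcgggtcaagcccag
Derl3: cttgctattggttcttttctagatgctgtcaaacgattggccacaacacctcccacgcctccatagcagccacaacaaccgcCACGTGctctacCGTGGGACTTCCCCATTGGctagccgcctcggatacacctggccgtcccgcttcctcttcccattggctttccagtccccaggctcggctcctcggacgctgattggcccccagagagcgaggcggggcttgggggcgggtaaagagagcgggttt
The Pigr stretch held 1 E-box, CACGTG, 71 bases before the start. The Derl3 stretch held an E-box 168 bases before the start and, on the other strand, an endoplasmic reticulum stress element (CCAAT, then 9 bases, then CCACG), 156 bases before the start. Of 32851 promoter stretches of the same length, searched on both strands, 6.02% held the E-box and 0.113% the stress element. The octamer ATGCAAAT (1.60% of promoters), the interferon element (GAAA, then 2 bases, then GAAA, in 2.98%) and the unfolded protein response element TGACGTGG (0.563%) were not matched in the stretches of Pigr, Derl3 or Jchain.

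The libraries held 8667177 to 17243712 counts on genes, with a median of 11530916. Colon epithelium genes (12 markers, among them Lgals4 and Krt8) summed to 4149 to 6940 TPM in every library. Libraries also differed in other cells of the colon wall. Genes of stratified squamous epithelium, a tissue that the colon itself lacks, summed to 2.05 to 2043 TPM in HFD females and to 1.54 to 663 TPM in HFD males, but to no more than 15.7 TPM in the other groups. B cell and follicle genes ranged from 8.22 to 119 TPM. In such bulk tissue, more cells of a type and more RNA per cell cannot be told apart.

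Levels were compared between genes in TPM, which is scaled to gene length. Pigr had the highest TPM of the 10 genes in 30 of 30 libraries and Igkc the second highest in 29 of 30. Among the heavy chain genes, Igha was the highest in 26 libraries and Ighm in 4, namely replicate 3 of CD females and replicates 2, 3 and 6 of HFD+E2 males. Jchain was below Igha in every library. Mzb1, a chaperone that helps assemble antibodies, reached only 0 to 22 counts, and Derl3, which takes part in the disposal of misfolded proteins, 0 to 12 counts. Across the 30 libraries, Pigr varied least (841 to 1354 TPM, a coefficient of variation of 13.3%) and Iglc1 most (1.25 to 491 TPM).

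**Figure D1:**
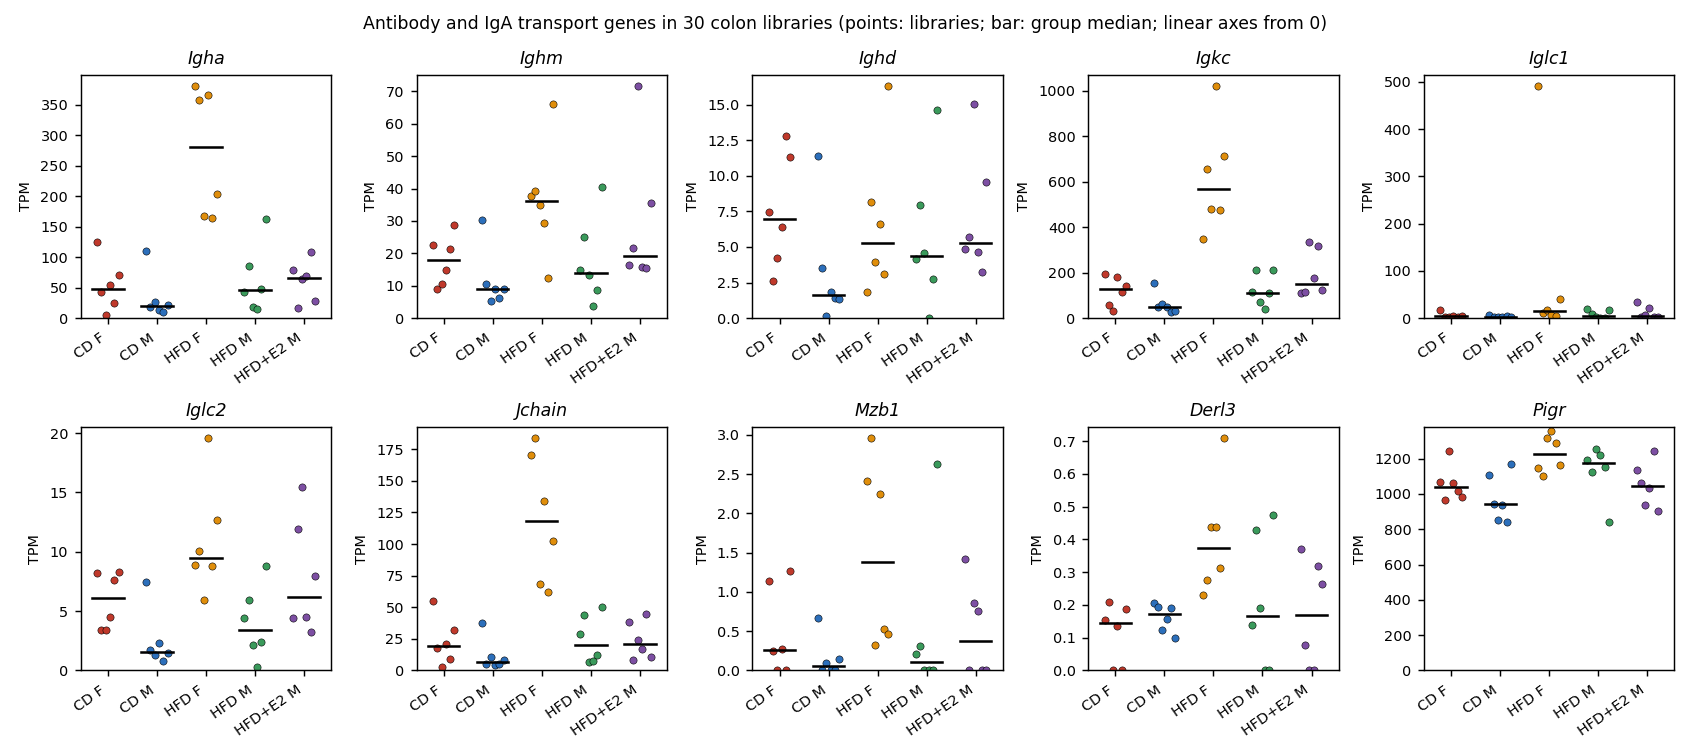
TPM of the 10 genes in each of the 30 libraries, by group (6 points a group), on linear axes from 0, with a bar at the group median. Igha, Igkc and Jchain of HFD females lie above all other libraries, while Pigr lies between 841 and 1354 TPM throughout.

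HFD females stood apart in the genes of the secreted antibody. Igha, the constant region of IgA, ranged from 164 to 381 TPM in HFD females, with a median of 281. It ranged from 5.78 to 125 TPM (median 48.6) in CD females, from 10.1 to 109.6 (median 19.6) in CD males, from 15.1 to 163 (median 45.6) in HFD males and from 16.0 to 109 (median 66.7) in HFD+E2 males. All 6 HFD females thus exceeded the other 24 libraries, by a small margin over replicate 6 of HFD males at 163 TPM. The ranges of the other groups overlapped.

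Jchain, whose product joins IgA into polymers, showed the same arrangement. It ranged from 62.4 to 184 TPM in HFD females (median 118). The other groups ranged from 2.44 to 54.8 in CD females (median 19.4), from 3.97 to 37.8 in CD males (6.87), from 6.98 to 50.2 in HFD males (20.5) and from 8.05 to 44.6 in HFD+E2 males (20.6). The HFD females again lay above all other libraries. On the log2 CPM scale used for the tests, Igha and Jchain were the only 2 of 15334 genes whose 6 HFD female values were all above the other 24 libraries (0.013%), and 0 genes were below them all. This count compares the libraries as they are and is not a test.

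Igkc, the constant region of kappa light chains, ranged from 349 to 1022 TPM in HFD females (median 567). It ranged from 31.0 to 195 in CD females (median 129), from 26.6 to 154 in CD males (48.3), from 40.2 to 212 in HFD males (113) and from 109.6 to 335 in HFD+E2 males (149). In TPM the HFD females were again above all others, the nearest being replicate 3 of HFD+E2 males at 335.

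In HFD compared with CD females, 8 of the 10 genes passed the filter on low counts. By the edgeR quasi-likelihood test with Benjamini-Hochberg adjustment over 15061 genes, 0 of the 8 passed an adjusted p of 0.05, as did only 0.0199% of all genes. By the threshold the study used, read here as an unadjusted p under 0.05 and a log2 fold change over 0.4, 6 of the 8 were higher in HFD females, against 2.95% of all genes tested (3.67% in either direction and 0.724% lower). They were Igha, Ighm, Igkc, Iglc1, Iglc2 and Jchain. With 1 library left out, Igha, Igkc, Iglc1 and Jchain passed each time, but the count fell to 4, without Ighm and Iglc2, when replicate 2, 3 or 4 of CD females or replicate 2 of HFD females was left out. Over all genes, 439 to 636 were higher by this threshold in those fits. In every comparison the genes past this threshold were also all those of the 10 with an unadjusted p under 0.05. DESeq2 called 4 at an adjusted p under 0.05, namely Igha, Igkc, Jchain and Iglc1, where it called 1.05% of all genes. Igha differed by 2.26 ± 0.53 on the log2 scale (SE, n = 6 against 6, edgeR adjusted p = 0.412), a 4.78-fold higher level. Igkc differed by 2.28 ± 0.46 (edgeR adjusted p = 0.383) and Jchain by 2.32 ± 0.52 (edgeR adjusted p = 0.412).

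In these 3 genes no HFD female overlapped any CD female, as was so for 0.212% of genes in either direction and 0.153% in this direction. Each therefore had an unadjusted exact two-sided permutation p of 0.00216, the smallest that 6 against 6 libraries can give. Any gene without overlap has this p, so it adds nothing to the separation. By edgeR rank, Igkc was 14th, Jchain 31st and Igha 44th of 15061 genes. With the squamous score as a covariate the log2 difference was 2.22 ± 0.67 for Igha and 2.46 ± 0.65 for Jchain (edgeR adjusted p = 0.9998 for both). The squamous score ran from -1.56 to -0.75 in CD females. It was -1.10 and -1.50 in replicates 2 and 6 of HFD females and 4.04 to 6.56 in their other replicates. This fit thus separates squamous content from diet largely through replicates 2 and 6. Those libraries, whose squamous genes summed to 3.75 and 2.05 TPM, had 358 and 204 TPM of Igha. The part of squamous tissue in the difference was not tested otherwise.

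HFD females were also compared with HFD males. Of 8 genes tested, 0 passed the adjusted threshold of edgeR (0.0988% of 15179 genes did), and 5 were higher by the study's threshold, against 2.01% of all genes (3.09% in either direction and 1.08% lower). They were Igha, Igkc, Iglc1, Iglc2 and Jchain. Without replicate 1 of HFD females Iglc1 no longer passed (243 of 15273 genes were higher in that fit), and the other 4 passed with any library left out. DESeq2 called Igha, Igkc and Jchain at an adjusted p under 0.05, where it called 0.252% of all genes. Igha was higher by 2.19 ± 0.53 on the log2 scale (edgeR adjusted p = 0.640), Igkc by 2.37 ± 0.42 (edgeR adjusted p = 0.118) and Jchain by 2.35 ± 0.51 (edgeR adjusted p = 0.404). None of these 3 overlapped between the groups, which held for 0.362% of genes, or 0.125% in this direction. The lack of overlap again fixes the exact two-sided permutation p at 0.00216 for each. The comparisons with CD females and with HFD males share the HFD female libraries and are not independent of each other.

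**Figure D2:**
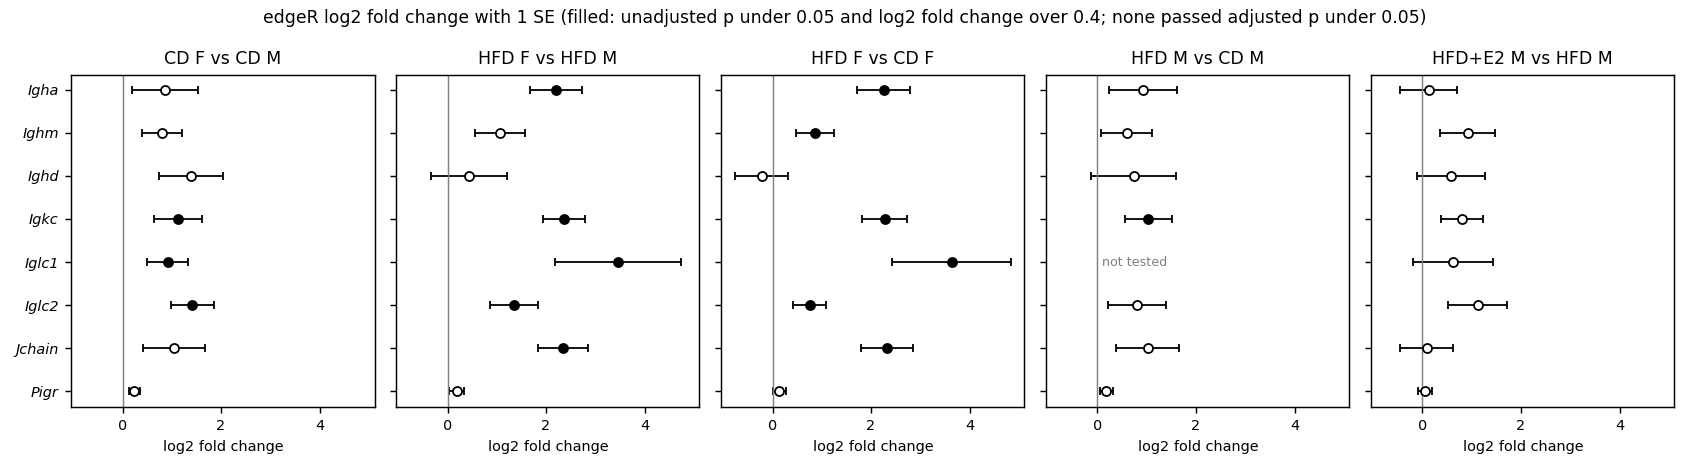
edgeR log2 fold changes with 1 SE for the 8 genes that passed the filter, in the 5 comparisons (first group over second, 6 libraries each). Filled points passed an unadjusted p under 0.05 and a log2 fold change over 0.4, and Igha, Igkc and Jchain lie between 2.19 and 2.37 in both comparisons of HFD females.

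Ighm, the first isotype that B cells make, followed another pattern. It ranged from 12.5 to 66.1 TPM in HFD females (median 36.3), from 8.88 to 28.8 in CD females (18.1) and from 5.22 to 30.3 in CD males (9.00). HFD males ranged from 3.89 to 40.4 TPM (14.1) and HFD+E2 males from 15.5 to 71.8 (19.1). All 5 groups overlapped. The log2 difference between HFD and CD females was 0.86 ± 0.39 (edgeR adjusted p = 0.872), and between HFD females and HFD males 1.06 ± 0.50 (edgeR adjusted p = 0.872).

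Ighd, the constant region of IgD on naive B cells, was low in all groups. Its medians were 6.94 TPM in CD females, 1.62 in CD males, 5.27 in HFD females, 4.39 in HFD males and 5.28 in HFD+E2 males. It was listed at 0 in replicate 4 of HFD males and reached 16.3 TPM in replicate 6 of HFD females. Unlike those of the other 5 constant genes among the 10, its log2 difference between HFD and CD females was below 0, at -0.22 ± 0.54 (edgeR adjusted p = 0.999), though above 0 with the squamous or the B cell score as a covariate.

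The ratio of Igha to Ighm within a library does not depend on library size. In HFD females it ran from 3.09 to 13.1 with a median of 9.62, while the medians of the other groups were 3.09 in CD females, 2.03 in CD males, 3.67 in HFD males and 2.64 in HFD+E2 males. As log2, it averaged 2.96 ± 0.83 (SD, n = 6) in HFD females and 1.21 ± 1.30 in CD females, a difference of 1.75 (exact two-sided permutation p = 0.0173). Against HFD males, at 1.71 ± 0.66, the difference was 1.25 (exact permutation p = 0.0238). Adjusted over the 10 ratio tests made, both became 0.119 and did not pass. HFD+E2 males split widely, with replicates 2, 3 and 6 between 0.733 and 0.896 and the other 3 between 4.38 and 7.04.

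Of the heavy chain constant TPM, Igha accounted for a median of 83.8% in HFD females (69.4% to 88.7%), compared with 67.0% in CD females, 60.6% in CD males, 72.6% in HFD males and 57.1% in HFD+E2 males. The 4 Ighg genes together gave a median of 2.74% in HFD females (1.84% to 16.7%) and 4.88% in HFD+E2 males (0.579% to 17.3%). Medians of the same genes were 1.24% in CD females, 0.868% in CD males and 1.02% in HFD males. One of the 4, Ighg2b, is an IgG constant gene named after its values were seen. It ranged from 3.06 to 10.7 TPM in HFD females and reached at most 1.92 TPM in HFD males and 2.05 TPM in CD females. Its log2 difference was 3.21 ± 0.62 against HFD males (edgeR adjusted p = 0.126) and 2.11 ± 0.49 against CD females (edgeR adjusted p = 0.410). In HFD+E2 males it ranged from 0.324 to 11.8 TPM, with a log2 difference from HFD males of 2.87 ± 0.93 (edgeR adjusted p = 0.455). Ighg1 reached 67.1 TPM in 1 HFD female, where the median of that group was 0.757.

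**Figure D3:**
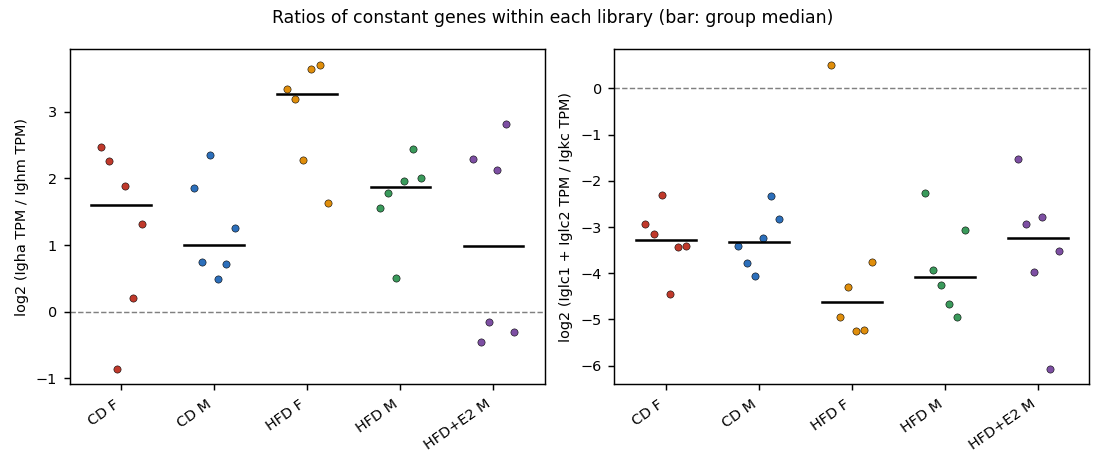
Ratios of constant genes within each of the 30 libraries on a log2 scale, Igha to Ighm on the left and Iglc1 plus Iglc2 to Igkc on the right, with a bar at the group median. Replicate 1 of HFD females is the only library above 0 for lambda to kappa.

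Light chains were mostly kappa, as is usual in mice: Igkc exceeded Iglc1 plus Iglc2 in 29 of 30 libraries. The exception was replicate 1 of HFD females. There Iglc1 reached 491 TPM (1515 counts) and Igkc 349 TPM, the lowest kappa level among HFD females. Iglc1 made up 57.6% of light chain constant TPM in this library, against 0.697% to 5.11% in the other HFD females. Its lambda variable genes summed to 575 TPM, of which 94.3% was Iglv1.

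Outside this library, Iglc1 ranged from 3.97 to 39.8 TPM in HFD females, and in the other groups from 1.25 to 33.8 TPM. The log2 difference of Iglc1 was 3.63 ± 1.20 between HFD and CD females (edgeR adjusted p = 0.598) and 3.45 ± 1.28 between HFD females and HFD males (edgeR adjusted p = 0.872). Without replicate 1 these became 1.47 and 1.30, so this library set much of their size.

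Iglc2 had medians of 6.08 TPM in CD females, 1.60 in CD males, 9.45 in HFD females, 3.41 in HFD males and 6.21 in HFD+E2 males. Its largest difference was between CD females and CD males, 1.41 ± 0.44 on the log2 scale (edgeR adjusted p = 0.101). HFD females differed from HFD males by 1.35 ± 0.49 (edgeR adjusted p = 0.872) and from CD females by 0.75 ± 0.34 (edgeR adjusted p = 0.861).

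The log2 ratio of lambda (Iglc1 plus Iglc2) to kappa averaged -3.83 ± 2.21 in HFD females and -3.28 ± 0.70 in CD females (n = 6 each), and the exact two-sided permutation p was 0.639. The lowest exact permutation p over the 5 comparisons was 0.262, between HFD and CD males. Without replicate 1 of HFD females the difference from CD females became -1.42 (exact permutation p = 0.0130).

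Pigr, the epithelial receptor that carries polymeric IgA, varied little. It ranged from 1101 to 1354 TPM in HFD females (median 1226), from 963 to 1241 in CD females (1039) and from 841 to 1167 in CD males (942). In HFD males it ranged from 843 to 1254 TPM (1173) and in HFD+E2 males from 901 to 1244 (1047). All groups overlapped. The log2 difference between HFD and CD females was 0.14 ± 0.13, with a 95% interval from -0.14 to 0.41 (edgeR adjusted p = 0.999), and the largest was 0.24 ± 0.11 between CD females and CD males (edgeR adjusted p = 0.342). The interval for Pigr in HFD against CD females lay below that for Igha, 1.09 to 3.42.

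Mzb1 and Derl3 were too low for the filter in the 5 comparisons. Whether the overlap with SPATA24 cost Mzb1 reads was not tested. Mzb1 had 3 to 22 counts in HFD females and 0 to 10 in CD females, with 0 counts in 5 of the 30 libraries. Derl3 had 4 to 12 counts in HFD females and 0 to 4 in CD females, so the raw counts met at 4. Its TPM and log2 CPM did not overlap between these groups, which fixes the exact two-sided permutation p at 0.00216 on log2 CPM. On log2 CPM the same held for 0.212% of the genes that passed the filter, or 0.153% in this direction. At so few counts this separation rests on the scaling of the libraries. The other comparisons of Mzb1 and Derl3 gave exact permutation p-values above 0.05.

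CD females against CD males was the comparison with the most calls over all genes, yet 0 of 8 antibody genes passed the adjusted threshold of edgeR (2.92% of 14922 genes did). By the study's threshold, Igkc, Iglc1 and Iglc2 were higher in CD females, 3 of 8 against 2.94% of all genes (9.15% in either direction and 6.21% lower). No gene of the 10 had groups that did not overlap, as 2.18% of genes did (0.69% higher in CD females). DESeq2 called Iglc2 at an adjusted p under 0.05, where it called 4.3% of all genes. Igha differed by 0.86 ± 0.68 (edgeR adjusted p = 0.629), Ighm by 0.80 ± 0.41 (edgeR adjusted p = 0.409) and Ighd by 1.39 ± 0.65 (edgeR adjusted p = 0.346), all on the log2 scale.

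This comparison turned on replicate 1 of CD males, which had 109.6 TPM of Igha against at most 26.6 in the other CD males, and 93.7 TPM of B cell genes against at most 22.2. The count of 3 became 1 without replicate 1 or 6 of CD females or replicate 2, 3, 4 or 6 of CD males, 5 without replicate 2 of CD females and 6 without replicate 3 of CD females. Over all genes, 467 of 15040 were higher by this threshold without replicate 2 of CD females and 519 of 15026 without replicate 3. In the fits with a count of 1, 325 to 512 genes were higher. Without replicate 1 of CD males, 7 genes passed the study's threshold, and Ighm, Ighd and Iglc2 passed the adjusted threshold at log2 differences of 1.28, 2.25 and 1.99. Over all genes, the shares without that library were 4.14% higher by the study's threshold and 4.6% past the adjusted threshold. With all 12 libraries, B cell and follicle genes themselves were higher by the study's threshold for 6 of 17 genes, against 2.94% of all genes. Their median log2 difference was 1.32 against 0.011 over all genes. With a B cell score as covariate, 0 of the 8 antibody genes passed the study's threshold in CD females against CD males. Over all genes, 307 of 14922 were higher and 575 lower in that fit. The difference of Ighm became -0.14. Within groups Ighm and Ighd followed the B cell genes closely, so this fit cannot separate them from B cell content.

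In males, the antibody genes of both diets overlapped. Of 7 genes tested in HFD against CD males, 0 passed the adjusted threshold (0.0% of 14991 genes), and DESeq2 called 0 (0.164% of all genes). Only Igkc, at 1.03 ± 0.47 (edgeR adjusted p = 0.823), passed the study's threshold, where 1.25% of genes were higher, 1.64% lower and 2.9% either. No gene of the 10 was without overlap between the groups (0.354% of genes were, 0.187% higher). Igha differed by 0.92 ± 0.69 (edgeR adjusted p = 0.864) and Jchain by 1.02 ± 0.64 (edgeR adjusted p = 0.844). Leaving out replicate 1 of CD males raised the count from 1 to 5, by Igha, Ighm, Iglc2 and Jchain, where 2.22% of genes were higher. Leaving out replicate 4 of HFD males made the count 3, where 241 of 15208 genes were higher. Leaving out any of replicates 2 to 6 of CD males or 1, 2 and 6 of HFD males made it 0, where 144 to 221 genes were higher.

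Whether the diet difference was unequal between the sexes was tested as an interaction over the 24 vehicle libraries. It was 1.33 ± 0.89 for Igha (edgeR adjusted p = 0.769), 1.29 ± 0.85 for Jchain (edgeR adjusted p = 0.765) and 1.24 ± 0.67 for Igkc (edgeR adjusted p = 0.741), on the log2 scale. Of 9 genes tested, 0 passed the adjusted threshold, 0 had an unadjusted p under 0.05 and DESeq2 called 0 (0.0% of 15800 genes passed with edgeR and 0.0476% of genes with DESeq2, and 5.18% passed the study's threshold, 3.71% above 0 and 1.47% below). A difference in diet response between the sexes was therefore not shown for these genes.

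Between HFD+E2 and HFD males, Igha and Jchain had log2 differences of 0.12 ± 0.57 (edgeR adjusted p = 0.942) and 0.08 ± 0.54 (edgeR adjusted p = 0.960). The 95% interval for Igha ran from -1.14 to 1.38. It overlapped the interval of Igha between HFD and CD females, 1.09 to 3.42, and whether these differences were unequal was not tested. Ighm differed by 0.92 ± 0.56 (edgeR adjusted p = 0.544), Igkc by 0.80 ± 0.43 (edgeR adjusted p = 0.513) and Iglc2 by 1.13 ± 0.60 (edgeR adjusted p = 0.508). Of 8 genes, 0 passed the adjusted threshold (0.00666% of 15010 genes did), 0 had an unadjusted p under 0.05 and DESeq2 called 0 (0.196% of all genes). By the study's threshold 2.63% of genes were higher, 3.24% lower and 5.87% either, and 0.413% did not overlap (0.147% higher), none of them among the 10. Without replicate 6 of HFD males, Ighm, Igkc and Iglc2 passed the study's threshold, where 4.46% of genes were higher. That library had the highest Igha, Ighm, Ighd, Iglc2, Jchain, Mzb1 and Derl3 of its group. Only Igkc passed without replicate 2 of HFD males, where 256 of 15162 genes were higher. Only Iglc2 passed without replicate 1 of HFD+E2 males, where 704 of 15180 genes were higher.

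Some of the genes varied together from library to library. After subtraction of group means over the 30 libraries, log2 CPM of Igha correlated with Jchain at r = 0.96, with Mzb1 at 0.84 and with Igkc at 0.79, but with Ighm at 0.45. Ighm correlated with Ighd at 0.88 and with Iglc2 at 0.86. Pigr correlated with Igha at -0.36 and with Jchain at -0.41. These are descriptions over libraries that share their normalization, and Mzb1 and Derl3 rest on few counts.

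**Figure D4:**
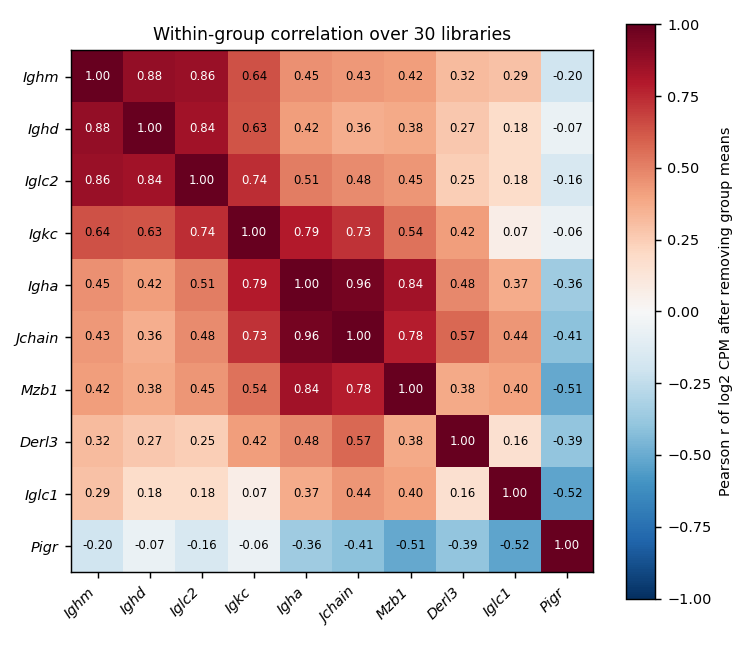
Pearson correlation of log2 CPM between the 10 genes over 30 libraries after removing group means, from -1 (blue) to 1 (red). Ighm, Ighd and Iglc2 form 1 block (0.84 to 0.88) and Igha, Jchain and Mzb1 another (0.78 to 0.96).

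Against lists of other genes, Ighm and Ighd correlated most with the B cell and follicle score, at 0.92 and 0.96, whereas Igha reached 0.50 and Jchain 0.46. For Igha and Jchain the plasma cell and secretory score gave 0.69 and 0.73. Among 15295 genes outside the antibody loci, those most like Igha were Itgal (0.78), a leukocyte integrin, Nrros (0.75), Cd53 (0.72), a leukocyte tetraspanin, H2-T22 (0.72) and Irf4 (0.72), a transcription factor needed for plasma cells. Those most like Ighm were Clu (0.95), Ikzf3 (0.94), Cd79a (0.94), Blk (0.93) and Ptprc (0.92), of which Cd79a and Blk encode B cell receptor signaling proteins. Those most like Pigr were Gm13091 (0.74), Ptger3 (0.73), Pde9a (0.73), Fam120a (0.72) and Tmem234 (0.71).

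B cell and follicle genes were compared in the same way. Between HFD and CD females their median log2 difference was -0.43 (1 of 17 above 0), while the median of the 8 tested antibody genes was 1.56 and that of all genes 0.0012. None of the 17 passed either threshold there. With the B cell score as a covariate, the difference of Igha between HFD and CD females was 2.49 and that of Jchain 2.55. Cd79b and Cr2, the most abundant genes of this list, are found on B cells and, for Cr2, on follicular dendritic cells.

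Genes of plasma cells and the secretory pathway gave few differences of their own. Of 25 tested in HFD against CD females, 0 passed the adjusted threshold and the median log2 difference was 0.049. Prdm1 and Irf4, factors of plasma cell differentiation that are named after their values were seen, were higher by the study's threshold (2.95% of genes were). Prdm1 ranged from 0.239 to 1.71 TPM in HFD females and from 0.228 to 0.510 in CD females, with a log2 difference of 1.36 ± 0.36 (edgeR adjusted p = 0.421). Irf4 differed by 0.66 ± 0.28 (edgeR adjusted p = 0.790). The most abundant genes of the list, Xbp1 and Hsp90b1, are also used by epithelial cells, and Xbp1 differed by 0.05 ± 0.10 (edgeR adjusted p = 0.999). Sdc1, a surface proteoglycan of plasma cells and epithelium, was the only gene of this list past the adjusted threshold in any of the 5 comparisons, higher in CD females than in CD males by 0.42 ± 0.08 (edgeR adjusted p = 0.00995).

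Of the 22 genes for IgA induction, survival and homing, 10 to 12 were tested in each of the 5 comparisons and 0 passed the adjusted threshold. This list holds Ccl28, a chemokine that draws IgA-producing cells to mucosa, and Tgfbr2, a receptor of the cytokine that directs the switch to IgA, as its most abundant genes. In HFD against CD females 0 of 12 passed the study's threshold. Of the 18 genes for Pigr regulation and transcytosis, 16 were tested, 0 passed the adjusted threshold in the 5 comparisons, and Rab3b was lower by the study's threshold in CD females and in HFD males, each against CD males. Its most abundant genes, Myo5b and Rab25, encode a motor and a small GTPase of recycling vesicles.

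Variable segment genes differ between B cell clones. Summed over 113 Ighv genes, HFD females had 266 to 724 TPM, against at most 226 TPM in the other 24 libraries. Summed over 101 Igkv genes they had 267 to 1015 TPM, against at most 252. Counts on all 268 antibody locus genes were 0.0557% to 0.119% of the library in HFD females and at most 0.0464% in the others. These sums hold many genes each and follow the same libraries as Igha and Igkc, so they are not independent of them.

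**Figure D5:**
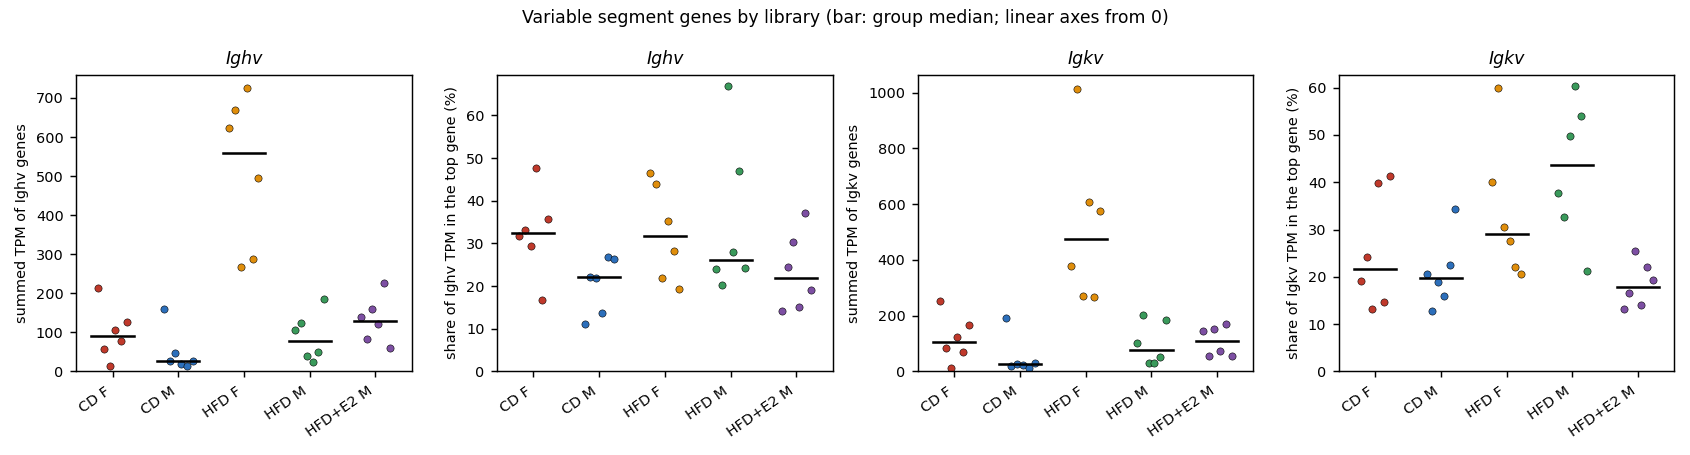
Summed TPM of Ighv and Igkv genes and the share of the top gene in each of the 30 libraries, on linear axes from 0 with a bar at the group median. HFD females lie above all other libraries in both sums, while the shares overlap among groups.

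The leading segment differed between the libraries of a group. In the 6 HFD females the top Ighv gene was Ighv5-9-1, Ighv1-64, Ighv1-82, Ighv6-3, Ighv9-3 and Ighv6-6 in replicates 1 to 6, at 19.2% to 46.5% of Ighv TPM. In every group the 6 libraries had 6 different top Ighv genes. Over the 30 libraries, Ighv6-3 (10.3%), Ighv6-6 (9.06%), Ighv1-64 (6.26%), Ighv1-26 (5.54%) and Ighv1-53 (4.30%) had the highest mean shares. The top share in HFD females (median 31.8%) overlapped with CD females (32.4%), CD males (22.1%), HFD males (26.2%) and HFD+E2 males (21.8%). Among Igkv genes, Igkv1-110 (9.51%), Igkv8-28 (7.23%), Igkv1-117 (7.09%), Igkv10-94 (4.25%) and Igkv10-96 (4.05%) had the highest mean shares, and the top share ranged from 20.6% to 59.9% in HFD females. Reads of similar segments may be assigned to either, so these shares are approximate.

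Among markers of other cells, the smooth muscle list was the only one with genes past the adjusted threshold in the 5 comparisons. In CD females, 5 of 9 (Acta2, Actg2, Des, Tagln and Synpo2) were lower than in CD males past the adjusted threshold. Of all 14922 genes, 2.92% passed it in either direction. The 9 genes summed to 2526 to 3926 TPM in CD females and to 3986 to 6667 TPM in CD males. Within groups Jchain correlated with the smooth muscle score at -0.74 and Igha at -0.60. In HFD against CD females the 9 smooth muscle genes had a median log2 difference of 0.23 and 0 passed either threshold. Markers of B cells, T cells, macrophages, colon epithelium, squamous epithelium and adipocytes had 0 genes past the adjusted threshold in the 5 comparisons. Many of them were too low to be tested: 2 or 3 of 11 T cell genes were tested and 1 to 4 of 6 adipocyte genes. Of 15 squamous genes 2 were tested, but 14 in HFD females against HFD males. In HFD against CD females the 2 squamous genes tested were higher by the study's threshold (2.95% of genes were), with a median log2 difference of 6.74. Their part, and that of squamous tissue, in the antibody gene levels was not tested beyond the covariates above.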

How the data were processed

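RNA-seq libraries of 30 colon samples were prepared by the authors from ribosome-depleted total RNA with a stranded kit. Per the submitters' processing notes, bcl2fastq 2.19.1.403, Trim Galore, STAR, featureCounts and StringTie were used with the mm10 build. The counts per gene were deposited by the authors as raw read counts in 1 table. The TPM values, and beside them FPKM and coverage columns that were not used here, were deposited by the authors per library as StringTie estimates. The annotation release and the strand setting of the counting are not given in the sources used here.

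Genes of each comparison (12 libraries) were filtered with filterByExpr, scaled by TMM and tested with edgeR 4.0.16 quasi-likelihood fits (R 4.3.3), with Benjamini-Hochberg adjustment over all genes tested. Calls used an adjusted p under 0.05, or the study's threshold of an unadjusted p under 0.05 with an absolute log2 fold change over 0.4. Intervals of 95% used the SE and the degrees of freedom of the fit. The interaction was fitted over 24 vehicle libraries. Single values were tested by exact two-sided permutation of 6 against 6 libraries, on log2 CPM with a prior count of 2 for genes, and ratios were taken on TPM. Repeated gene names in a TPM table (23) were summed. Alternatives were DESeq2 1.42.0, limma 3.58.1 on log2 TPM with pseudocounts of 0.1 and 1, other filters, 1 fit over 30 libraries, a replicate block, covariates for B cell, epithelium and squamous scores, and leaving out each library. The fits were tested on simulated data.

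The 10 genes and the lists were chosen with earlier results of these data known. Named were the 10 genes, from each list the genes past the adjusted threshold (at most 4) and the 2 of highest mean TPM, the 5 genes most like Igha, Ighm and Pigr, and the 5 Ighv and 5 Igkv genes of highest mean share. Other names are stated as chosen after their values were seen. The smooth muscle list had 5 genes past the threshold, and all 5 are named. Depth was 8667177 to 17243712 counts per library, so genes with few counts, such as Mzb1 and Derl3, were measured with large counting error.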

Additional observations from a re-analysis of the deposited data

Results flagged for a closer look

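Of 60 groups of 6 libraries checked (the 10 genes and 2 ratios in 5 groups), 14 held a highest or lowest library whose gap to its neighbour exceeded 0.625 of the group's range. Chance passes this limit in about 1 of 20 groups if values are normally distributed. The genes were checked on linear TPM, which need not be so distributed, so the 14 cannot be read against that rate. The genes share libraries, so these are not 14 separate events.

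Replicate 1 of CD males stood above the rest of its group in this way in 7 genes. It had 109.6 TPM of Igha (the next had 26.6), 30.3 of Ighm (10.6), 11.4 of Ighd (3.55), 154 of Igkc (63.5), 7.45 of Iglc2 (2.32), 37.8 of Jchain (11.0) and 0.674 of Mzb1 (0.146). The same library had 93.7 TPM of B cell and follicle genes, and the part of these cells in its antibody gene levels was not tested.

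Replicate 1 of HFD females had 491 TPM of Iglc1, where the next had 39.8, and a log2 ratio of lambda to kappa of 0.52, where the next had -3.77. Replicate 1 of CD females had 17.1 TPM of Iglc1 (the next 4.90). Replicate 3 of HFD+E2 males had 71.8 TPM of Ighm (35.6).

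Replicate 6 of HFD males had 2.62 TPM of Mzb1 (the next 0.309) and the lowest Pigr, 843 TPM (the next 1123). Replicate 3 of CD females had the highest Pigr of its group, 1241 TPM (the next 1065).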

How the results depend on the processing

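Over 48 fold changes of the antibody genes, 609 values under other settings gave 577 with the same direction and side of the adjusted threshold, 16 newly past it and 16 of the opposite sign. Of 684 values with 1 library left out, 32 changed sign and 3 newly passed. Igha, Igkc and Jchain kept their direction in both comparisons of HFD females under every setting run. The causes of the changes were not tested.

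The count of antibody genes past the adjusted threshold became 1 in CD females against CD males, 3 in HFD females against HFD males and 4 in HFD against CD females with DESeq2, and 1 in each of the latter comparisons in the fit over 30 libraries. It was also 1 in HFD females against HFD males with the B cell or the epithelium covariate. Over all genes, the fit over 30 libraries called 30 of 16060 in HFD females against HFD males and 86 of 16060 in HFD against CD females. With the B cell and the epithelium covariate, 14 and 13 of 15179 genes were called in HFD females against HFD males. By the study's threshold, the antibody gene count in CD females against CD males was 1 with at least 10 counts in every library (1154 of 13371 over all genes). It was 0 with the B cell covariate (882 of 14922 over all genes). In HFD against CD males it was 0 with no filter (1056 of 27820 over all genes) or with the squamous (421 of 14991) or B cell covariate (401 of 14991). In HFD+E2 against HFD males it was 1 with DESeq2 (1184 over all genes) and in the fit over 30 libraries (1143 of 16060). For the interaction it was 1 with DESeq2 (1008 over all genes) and 4 with the B cell covariate (613 of 15800). Over all genes, edgeR and DESeq2 called 435 and 774 in CD females against CD males, 15 and 50 in HFD females against HFD males, 3 and 214 in HFD against CD females, 0 and 26 in HFD against CD males, 1 and 38 in HFD+E2 against HFD males and 0 and 7 for the interaction.

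Same-numbered libraries correlated at -0.27 to 0.50 and are not paired by design. With the replicate number as a block, the count past the adjusted threshold in CD females against CD males was 1 (941 of 14922 over all genes). By the study's threshold the count was 0 in HFD against CD males (558 of 14991 over all genes). It was 1 in HFD+E2 against HFD males (1158 of 15010) and 1 for the interaction (1088 of 15800). In the paired test with the replicate block, the log2 ratio of Igha to Ighm, HFD F vs HFD M, differed by 1.25 (exact permutation p = 0.0625).

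With the B cell covariate, Ighm log2 fold change, CD F vs CD M, was -0.14, Ighd log2 fold change, HFD F vs CD F, was 0.13 (0.64 with the squamous covariate), and Ighd log2 fold change, sex by diet interaction, was 0.059. Pigr log2 fold change, HFD+E2 M vs HFD M, was -0.10 on log2 TPM with either pseudocount and unfiltered. Iglc2 log2 fold change, sex by diet interaction, was 0.087 with the squamous and 0.79 with the B cell covariate and 0.35, 0.32 and 0.35 on log2 TPM (pseudocounts 0.1 and 1, and unfiltered). Mzb1 log2 fold change, sex by diet interaction, was -0.0010 with DESeq2. Pigr log2 fold change, sex by diet interaction, was 0.0073 on log2 TPM in all 3 forms. The log2 ratio of lambda to kappa constant genes, CD F vs CD M, was 0.10 on counts, 0.23 with Iglc3 added and 0.57 with Iglc2 alone. The log2 ratio of lambda to kappa constant genes, HFD F vs HFD M, was -0.055, -0.80 and -0.49 in the same order. With Iglc3 added, the log2 ratio of lambda to kappa constant genes, HFD M vs CD M, was 0.047, and the log2 ratio of lambda to kappa constant genes, HFD+E2 M vs HFD M, was -0.039. With Iglc2 alone, chosen after seeing the data, the log2 ratio of lambda to kappa constant genes, HFD F vs CD F, was -1.62 (exact permutation p = 0.00433).

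With 1 library left out, the count past the adjusted threshold ran from 0 to 3 in CD females against CD males, and that by the study's threshold from 1 to 7 there, from 0 to 5 in HFD against CD males and from 0 to 3 in HFD+E2 against HFD males. Over all genes the adjusted count ran from 244 to 691. By the study's threshold it ran from 1223 to 1684, from 346 to 706 and from 557 to 1497 in the same order. In CD F vs CD M the log2 fold change ran from 0.61 to 1.28 for Ighm, 1.06 to 2.25 for Ighd and 1.24 to 1.99 for Iglc2. Ighd ran from -0.14 to 0.98 in HFD F vs HFD M and from -0.79 to 0.10 in HFD F vs CD F. In HFD+E2 M vs HFD M, Igha ran from -0.087 to 0.61, Jchain from -0.16 to 0.39 and Pigr from -0.023 to 0.12. For the interaction, Ighm ran from -0.22 to 0.65, Iglc2 from -0.66 to 0.36, Mzb1 from -0.88 to 1.59 and Pigr from -0.14 to 0.017. The log2 ratio of Igha to Ighm in CD F vs CD M ran from -0.27 to 0.39. That of lambda to kappa ran from -0.20 to 0.23 in CD F vs CD M, -0.85 to 0.34 in HFD F vs HFD M, -1.42 to -0.26 in HFD F vs CD F and -0.0059 to 0.91 in HFD+E2 M vs HFD M.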

Other observations

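Iglc3, the lambda constant gene nearest to Iglc2 in sequence, was measured beside the 10 genes. Its log2 difference was 1.56 ± 0.44 between CD females and CD males (edgeR adjusted p = 0.0670) and 1.44 between HFD and CD males, but -0.36 between HFD and CD females. By the study's threshold it was higher in CD females than CD males (2.94% of genes were) and in HFD than CD males (1.25%). The interaction of sex and diet was -1.81 (edgeR unadjusted p = 0.00514, adjusted p = 0.603). It passed the study's threshold, as 1.47% of genes did below 0, but not the adjusted one. An unequal diet difference between the sexes was therefore not shown at the adjusted threshold. Because Iglc2 and Iglc3 share part of their sequence, reads may have been exchanged between them.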
